A study of Mus musculus with 15 samples.

Results

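Keratins are the proteins of the intermediate filaments of epithelial cells, and the keratin genes of the mouse were followed here across 5 sorted epithelia. Members were all protein-coding genes whose symbol is Krt followed by a number, with symbols and coding status taken from the GENCODE M21 annotation of the mouse genome build GRCm38. This gave 53 of the 50600 genes in the deposited tables, 28 of type I and 25 of type II. A keratin filament is built from pairs in which an acidic type I keratin binds a basic to neutral type II keratin, so an epithelial cell makes at least a type I and a type II gene together. In simple epithelia such as gut and lung these are KRT8 and KRT7 with KRT18, KRT19 and KRT20. The basal layer of stratified epithelia makes KRT5 with KRT14 and KRT15, the differentiating epidermal layers above it make KRT1 with KRT10, and the hair follicle has keratins of its own in the inner root sheath and the hair shaft. Filaments are anchored at desmosomes between cells and at hemidesmosomes on the basement membrane.

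The series compared primary epithelia that differ in MHC class I, to look for mechanisms. The cells came from C57BL/6J males of 8 weeks, were purified by fluorescence-activated sorting, and their RNA was sequenced. From the thymus came the cortical (cTEC) and the medullary epithelial cells (mTEC), and the remaining groups were the epithelia of skin, colon and lung. Each group had 3 libraries and each library was made from cells of 5 pooled mice, so n = 3 pools per group throughout, and the spread between mice within a pool is not seen. All groups were of the C57BL/6J strain, and the labels give no treatment. Library kits differed, with KAPA RNA Stranded PolyA for the thymic and skin pools and KAPA RNA HyperPrep PolyA for colon and lung, so for colon or lung against the other groups the kit and the tissue cannot be told apart.

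Gene reads per library ran from 12946533 in skin pool 1 to 41978665 in lung pool 2. Each group held its defining markers, in reads scaled to a common library total (CPM): Psmb11 was 193 to 593 CPM in cTEC and at most 28.4 in mTEC, and Aire was 242 to 613 CPM in mTEC and at most 67.1 in cTEC. Muc2 was at least 6620 CPM in every colon pool and Ager at least 12639 CPM in every lung pool, and the epidermal gene Sbsn was 1039 to 1242 CPM in skin. Several libraries stood apart from the others of their group. In skin pool 1 the gene Gm42418, which overlaps ribosomal RNA, took 14.8% of gene reads, against 4.89% in skin pool 2 and 0.979% to 2.62% in the 12 libraries of other groups. The summed CPM of 5 fibroblast markers was 2619, 773 and 4572 in skin pools 1 to 3 and 456 to 727 in lung, against at most 166 in the other groups. Skin pool 3 had the highest hair follicle marker levels of the skin pools. In the same way cTEC pool 3 had the highest cortical marker levels, and lung pool 2 had the lowest basal cell marker level. These values stand beside the results they touch.

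The type I genes lie in a block of 1037 kb on chromosome 11 (27 genes, 99232761 to 100269871), apart from Krt18. Krt18 lies with all type II genes in a block of 685 kb on chromosome 15 (26 genes, 101347444 to 102032027), where its neighbour is Krt8, 23.7 kb away on the opposite strand. Promoter sequences from RefSeq on GRCm38.p6, covering 250 bases before and 50 bases after the RefSeq start, were matched for 36 keratins with 37 entries. The letters TATAAA, the core of the TATA box, were searched on the gene's strand, and occurred in 17 of the 37 keratin promoters (45.9%) and in 8.32% of all 32851 promoters. Counting those that begin 35 to 25 bases before the start, the shares were 32.4% of keratin promoters (12 of 37) and 1.75% of all promoters. The other motifs were searched on both strands. GCCNNNGGC, a motif bound by AP-2 factors, occurred in 18.9% of keratin promoters and 16.6% of all, TGANTCA, bound by AP-1, in 5.41% and 7.81%, and GGGCGG, bound by Sp1, in 5.41% and 35.7%. A match describes the letters in the window and is not evidence of binding.

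The promoters below belong to the Krt8 and Krt18 neighbours of simple epithelium, to Krt10 of the differentiating epidermis, and to 4 inner root sheath keratins that were raised together in a single skin pool. Lower case marks bases without a match and capitals mark matches to the 4 motifs. TATAAA begins at position -30 from the start in Krt25, Krt28 and Krt73, at -26 in Krt10 and at -40 in Krt71, and at -1 in Krt8. Krt18 holds no TATAAA in this window and has 1 match to GCCNNNGGC, at -83.
Krt8 promoter, chr15:102004293-102004592, minus strand: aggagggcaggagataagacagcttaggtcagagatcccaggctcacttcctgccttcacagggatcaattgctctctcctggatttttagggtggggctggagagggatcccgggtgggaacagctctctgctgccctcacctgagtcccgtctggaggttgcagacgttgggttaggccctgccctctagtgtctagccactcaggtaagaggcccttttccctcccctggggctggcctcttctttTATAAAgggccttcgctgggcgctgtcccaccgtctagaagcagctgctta
Krt18 promoter, chr15:102027966-102028265, plus strand: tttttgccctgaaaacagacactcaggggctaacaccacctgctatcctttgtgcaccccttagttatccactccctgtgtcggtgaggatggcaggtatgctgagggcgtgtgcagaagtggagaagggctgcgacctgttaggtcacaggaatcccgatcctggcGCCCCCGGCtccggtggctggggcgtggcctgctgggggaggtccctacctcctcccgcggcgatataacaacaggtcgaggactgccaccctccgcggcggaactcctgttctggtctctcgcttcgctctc
Krt10 promoter, chr11:99389315-99389614, minus strand: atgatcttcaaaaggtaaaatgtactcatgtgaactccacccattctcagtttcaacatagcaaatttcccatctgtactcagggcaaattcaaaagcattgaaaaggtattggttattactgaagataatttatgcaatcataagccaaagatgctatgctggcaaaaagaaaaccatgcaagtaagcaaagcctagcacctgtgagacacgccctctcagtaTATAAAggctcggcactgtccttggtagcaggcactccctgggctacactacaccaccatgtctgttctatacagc
Krt25 promoter, chr11:99322902-99323201, minus strand: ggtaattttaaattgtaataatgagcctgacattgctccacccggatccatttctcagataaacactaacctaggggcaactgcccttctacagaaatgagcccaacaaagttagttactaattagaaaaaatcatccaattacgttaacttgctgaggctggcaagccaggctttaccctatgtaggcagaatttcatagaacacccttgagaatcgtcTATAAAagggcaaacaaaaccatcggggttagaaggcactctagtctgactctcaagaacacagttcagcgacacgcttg
Krt28 promoter, chr11:99374854-99375153, minus strand: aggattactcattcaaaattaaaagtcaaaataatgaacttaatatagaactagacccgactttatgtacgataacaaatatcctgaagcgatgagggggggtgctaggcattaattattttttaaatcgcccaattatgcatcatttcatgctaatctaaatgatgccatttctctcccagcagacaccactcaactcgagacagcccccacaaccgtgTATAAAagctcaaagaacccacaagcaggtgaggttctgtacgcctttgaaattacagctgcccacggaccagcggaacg
Krt71 promoter, chr15:101743048-101743347, minus strand: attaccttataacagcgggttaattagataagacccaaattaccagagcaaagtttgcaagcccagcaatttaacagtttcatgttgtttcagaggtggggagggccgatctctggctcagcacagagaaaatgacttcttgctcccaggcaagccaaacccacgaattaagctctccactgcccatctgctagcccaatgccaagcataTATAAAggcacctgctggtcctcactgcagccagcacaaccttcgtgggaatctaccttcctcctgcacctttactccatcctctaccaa
Krt73 promoter, chr15:101802311-101802610, minus strand: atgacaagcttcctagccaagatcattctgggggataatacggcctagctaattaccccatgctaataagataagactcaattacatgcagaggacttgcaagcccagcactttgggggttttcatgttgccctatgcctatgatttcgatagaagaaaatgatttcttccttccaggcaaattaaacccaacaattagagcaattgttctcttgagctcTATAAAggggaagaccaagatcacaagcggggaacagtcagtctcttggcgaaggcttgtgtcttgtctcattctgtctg

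By mean TPM cortical thymic epithelium was led by Krt18 and Krt8, and the lead of Krt8 over Krt5 depended on how reads were assigned, as given below for reads per kb. Krt18 stood at 2749, 2946 and 4037 TPM in the 3 cTEC pools and made up 58.2% ± 9.10 (SD, n = 3) of the summed type I keratin TPM. TPM is the deposited transcript level, corrected for transcript length and library size, and is the scale used here to compare different genes. Krt8 stood at 1857, 1759 and 2518 TPM, 52.3% ± 9.61 of type II. Next came Krt17 at 1280 ± 152 TPM, a keratin of hair follicle and stressed epidermis, Krt5 at 1390 ± 318 TPM, Krt14 at 773 ± 191 TPM and Krt7 at 417 ± 11.8 TPM. Krt19 reached 165 ± 57.2 TPM, and Krt10 30.6 ± 5.79 TPM.

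By TPM the order of Krt18, Krt17 and Krt14 and of Krt8, Krt5 and Krt7 was the same in all 3 cTEC pools, and the gap between simple and basal keratins was widest in pool 3. In cTEC pool 3 Krt8 and Krt18 were at their highest, while Krt5 at 1028 TPM, Krt14 at 557 TPM, Krt15 at 9.27 TPM and Krt19 at 102 TPM were at their lowest of the group. The same pool held the highest level of 6 of 6 cortical markers, with a summed 9544 CPM against 3856 and 3235 in pools 1 and 2. Its summed medullary markers were 717 CPM against 1158 and 1356, a sum made up mostly of Ccl21a (904, 1145 and 500 CPM in pools 1 to 3). Of the 6 medullary markers 2 were highest in pool 3, Aire (39.4, 26.4 and 67.1 CPM) and Fezf2 (49.6, 44.8 and 60.4 CPM). The part of this cell makeup in the keratin levels was not tested, and in bulk libraries fewer cells of a type and less RNA per cell cannot be told apart.

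Medullary thymic epithelium was led by the basal keratin Krt5 and by Krt17. Krt5 stood at 2593, 3275 and 3262 TPM in the 3 mTEC pools, 55.1% ± 3.17 of type II, and Krt17 at 2833, 3240 and 2986 TPM, 42.1% ± 0.634 of type I. Krt18 followed at 2134 ± 247 TPM, Krt8 at 1831 ± 139 TPM, Krt14 at 1759 ± 217 TPM and Krt7 at 487 ± 68.1 TPM. Among Krt5, Krt14, Krt17, Krt8 and Krt18 the lowest level in any thymic pool was 557 TPM, and in each other group at least 1 of these genes stayed at or below 23.9 TPM in every pool.

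Skin was led by the keratins of the basal and the differentiating epidermis. Krt14 stood at 7957, 9473 and 5724 TPM and Krt10 at 6032, 8571 and 7567 TPM, 35.6% ± 5.23 and 34.4% ± 4.62 of type I. These overlapped: Krt14 was higher in pools 1 and 2 and Krt10 in pool 3, and without pool 1 the mean of Krt10 (8069 TPM) passed that of Krt14 (7599 TPM). Among type II genes Krt5 stood at 5975, 7968 and 4508 TPM, 46.5% ± 6.90 of type II. Krt77, a suprabasal keratin of mouse skin, stood at 3344, 3970 and 3146 TPM, above Krt1 at 1986, 3220 and 2177 TPM in every pool. Krt15, a basal keratin rich in hair follicle stem cells, stood at 4481, 5449 and 2045 TPM. Krt8, Krt18, Krt7 and Krt19 did not exceed 21.9 TPM in any skin pool.

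Colon was the group nearest to a single pair. Krt8 stood at 4831, 3700 and 4008 TPM and made up 95.1% ± 1.25 of type II, and Krt19 stood at 3739, 2847 and 3107 TPM, 69.1% ± 3.41 of type I. Krt18 added 1211 ± 84.5 TPM and Krt20, a keratin of differentiated gut epithelium, 114 ± 31.2 TPM. Krt5 was at 0.07, 0.12 and 0.07 TPM, and Krt17, Krt1 and Krt77 did not exceed 0.47 TPM in any colon pool. Other keratins of stratified epithelium were higher there, with Krt16 at 7.70, 5.16 and 4.70 TPM, Krt10 at 4.27, 6.16 and 6.00 TPM, Krt6a at 4.87, 3.06 and 2.55 TPM, Krt15 at 3.59, 2.66 and 3.17 TPM and Krt14 at 1.24, 2.35 and 2.51 TPM.

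Lung was the only group led by Krt7 among type II genes. Krt7 stood at 1181, 1460 and 1445 TPM, 58.5% ± 4.29 of type II, and Krt8 at 817, 828 and 772 TPM. Krt19 stood at 1003, 1049 and 1115 TPM, 53.8% ± 5.13 of type I, and Krt18 at 763, 736 and 723 TPM. Krt80, a type II keratin of differentiating cells, reached 87.1 ± 11.9 TPM, a level passed only in skin. The leading type I and type II gene of each group was the same by mean when reads per kb replaced TPM. RSEM, the program behind the TPM, shares out reads that match several genes, and its Krt8 total was 1.47 times the uniquely placed reads: 26.9% of 50-base windows of the Krt8 transcript also occur in the pseudogene Krt8-ps. By uniquely placed reads per kb the mean shares of type II in cTEC were 44.2% for Krt8 and 41.7% for Krt5, and the order of these genes differed between pools. Krt8 took 40.3%, 37.6% and 55.3% and Krt5 45.0%, 48.1% and 31.3% in cTEC pools 1 to 3. Krt5 was thus ahead in pools 1 and 2, and only pool 3 put Krt8 ahead in the mean.

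**Figure D1:**
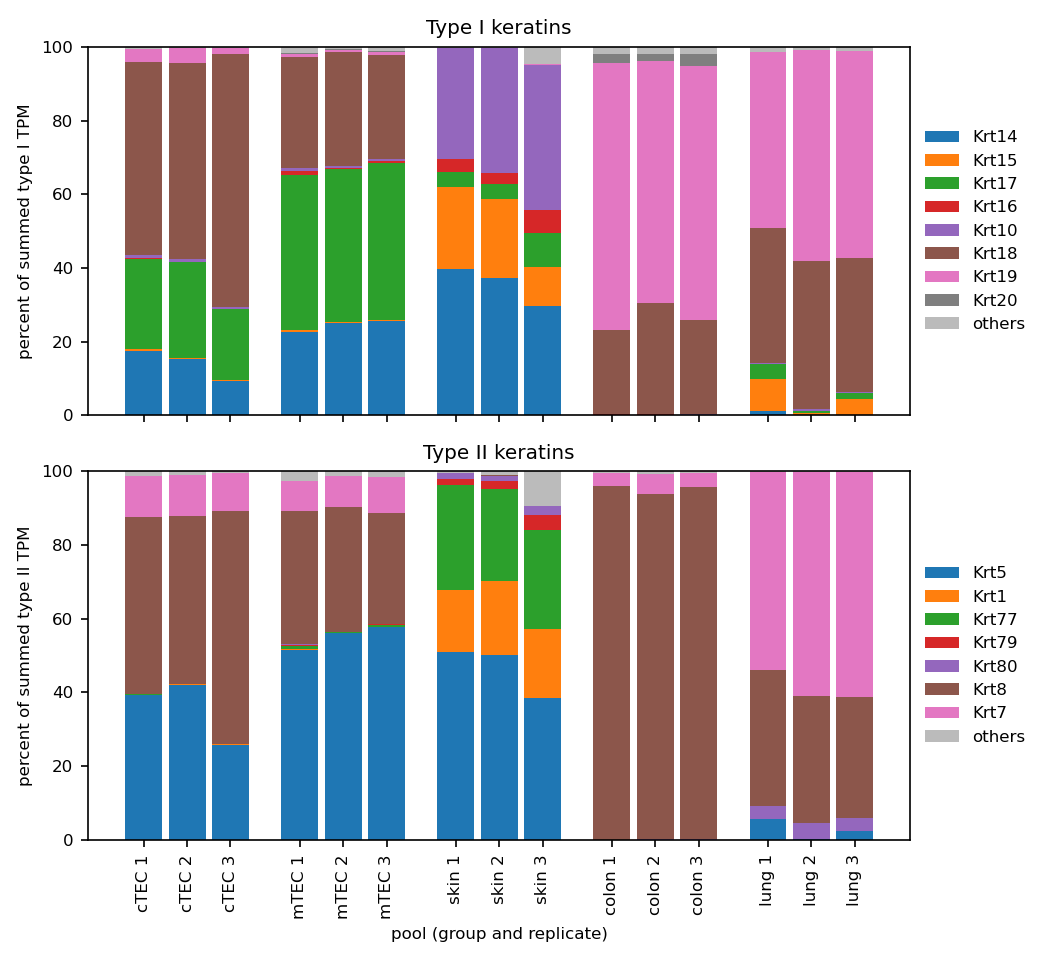
Share of each keratin in the summed TPM of its type, in percent, with a bar for each of the 15 pools. Skin is filled by Krt14, Krt10, Krt15, Krt5, Krt77 and Krt1, colon by Krt8, Krt19 and Krt18, and both thymic groups carry simple and basal keratins side by side.

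The summed keratin level was 34665 ± 5752 TPM in skin, 12682 ± 961 in mTEC, 9448 ± 381 in cTEC, 9057 ± 1007 in colon and 4293 ± 61.2 in lung. Skin pools took 4.46% to 6.36% of all gene reads for keratins, and lung pools 0.369% to 0.424%. The balance of the types also differed: for each 100 TPM of type I there were 60.7 ± 2.11 TPM of type II in skin, 70.5 ± 3.09 in cTEC, 76.8 ± 3.47 in mTEC, 94.0 ± 3.30 in colon and 119 ± 12.9 in lung. In lung type II exceeded type I in 3 of 3 pools (105 to 131), and in the other groups type I exceeded type II in every pool. These sums are described without a test.

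Between the thymic groups, the keratins that passed in the fit of all 15 libraries did not include Krt18, Krt8, Krt5 or Krt17. Of these, Krt18, Krt5 and Krt17 did not overlap in TPM between the groups. The share of all genes without overlap is not given, here or below, so a lack of overlap only describes the values and does not stand in for a test. Krt77 stood at 6.22, 4.20 and 1.75 TPM in cTEC and 36.6, 12.4 and 25.3 TPM in mTEC, with no overlap, and was 2.49 ± 0.47 (SE) log2 units higher in mTEC (adjusted p = 0.00275). Krt79, found in sebaceous and infundibular epithelium, was 2.11 ± 0.47 log2 units higher (adjusted p = 0.00556). Krt20 stood at 3.25, 1.81 and 3.67 TPM in cTEC and 30.5, 12.2 and 21.9 TPM in mTEC and was 2.91 ± 0.44 log2 units higher (adjusted p = 0.000490). Krt16, the stress keratin that pairs with KRT6, was 1.59 ± 0.44 log2 units higher in mTEC (adjusted p = 0.0171). Krt19 went the other way, at 180, 214 and 102 TPM in cTEC and 55.2, 48.0 and 59.9 TPM in mTEC, a difference of -1.68 ± 0.45 log2 units (adjusted p = 0.0152).

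In all, 14 of the 49 keratins that passed the filter on low counts differed between mTEC and cTEC, 13 higher and 1 lower in mTEC, beside 24.7% of all 19107 genes tested (15.2% higher, 9.45% lower). The median log2 difference of the 49 was 1.59, beside 0.07 for all genes. A keratin that passed the filter only through the mTEC pools had to lean towards mTEC, such as Krt9 with 843 reads in mTEC and 36 in cTEC. The median and the counts therefore describe the 49 and support no statement on the family. Of these 14, 9 reached a mean of 10 TPM in some group: Krt1, Krt10, Krt16, Krt20, Krt23, Krt77, Krt78 and Krt79 were higher in mTEC and Krt19 lower. The other 5, Krt9, Krt13, Krt39, Krt42 and Krt76, were called higher, did not exceed 16.3 TPM in any pool, and are named after their values were seen. Krt5 at 1.06 ± 0.69, Krt14 at 1.30 ± 0.95 and Krt17 at 1.16 ± 0.55 log2 units did not pass (adjusted p = 0.289, 0.352 and 0.142), although the TPM of the 2 groups did not overlap for any of these 3 genes. Krt8, at -0.17 ± 0.31, and Krt18, at -0.63 ± 0.26, did not pass either (adjusted p = 0.727 and 0.0880). For Krt18 too the TPM of the 2 groups did not overlap.

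The number of thymic calls depended on single libraries, and the share of all genes called moved in the same direction. Without skin pool 3 there were 30 of 49, all 14 among them, beside 32.7% of all genes. In a fit of the mTEC and cTEC libraries alone there were 27 of 42 tested, of which 9 were among the 14, beside 32.8% of all genes. In that fit Krt5, Krt14 and Krt17 passed, at 1.02 ± 0.28, 1.25 ± 0.28 and 1.12 ± 0.24 log2 units (adjusted p = 0.0221, 0.00862 and 0.00652). Krt18 also passed there, at -0.68 ± 0.23 log2 units (adjusted p = 0.0445), and without skin pool 3, at -0.62 ± 0.23 (adjusted p = 0.0496). The count was 6 without mTEC pool 1 (12.2% of all genes), 8 without mTEC pool 3 (18.3%) or cTEC pool 3 (15.8%), and 9 without cTEC pool 2 (15.3%). Same-numbered cTEC and mTEC pools deviated together, and with the replicate number as a block in all groups 13 keratins passed, 12 of them among the 14. With the block in the thymic pools alone, added after seeing the data, 12 passed, 11 of them among the 14. Krt10 and Krt42 lost their calls in both blocked fits (adjusted p = 0.0565 and 0.0551, then 0.0533 and 0.0635), and Krt1 in the second (0.0596). Krt1 and Krt10 had adjusted p values of 0.0446 and 0.0470 and lost their calls under 11 and 15 alternatives, including the omission of cTEC pool 1 or 3, mTEC pool 1 or 3, any colon pool, or lung pool 2 or 3, and for Krt10 also lung pool 1. Krt16 lost it without cTEC pool 3 or mTEC pool 1, Krt19 without cTEC pool 2 or mTEC pool 1, and Krt23 and Krt78 without cTEC pool 2 or 3 or mTEC pool 1 or 3. Krt20, Krt77 and Krt79 kept their calls under every alternative run.

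**Figure D2:**
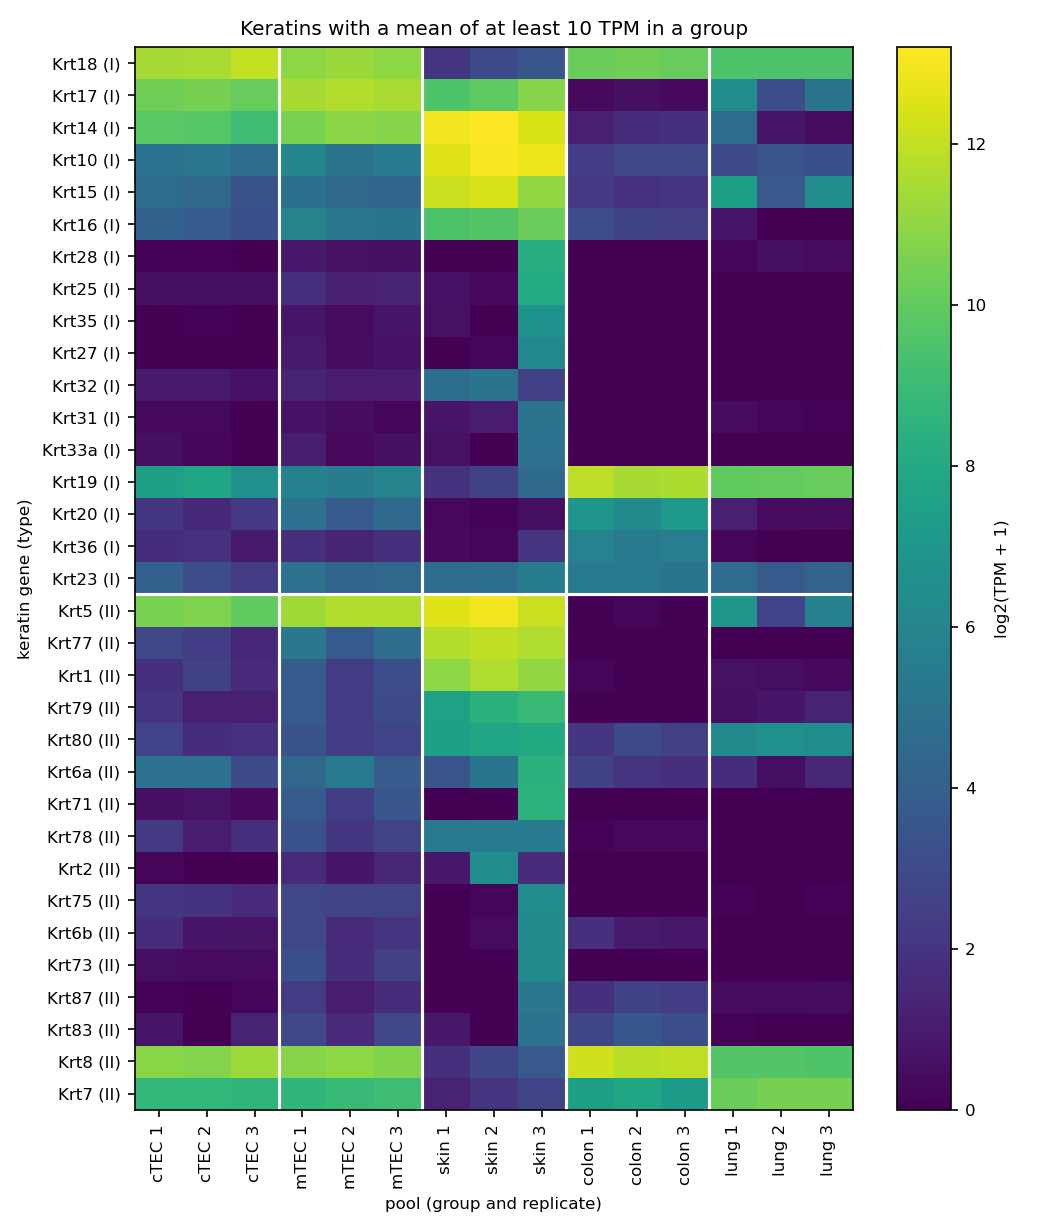
Level of the 33 keratins with a mean of at least 10 TPM in a group, as log2(TPM + 1) in each of the 15 pools, type I above type II. Bright rows shift from Krt18, Krt17, Krt8 and Krt5 in the thymus to Krt14, Krt10, Krt5 and Krt77 in skin and to Krt19, Krt8 and Krt7 in colon and lung. Of the skin pools only pool 3 is raised for most hair and root sheath genes. Krt32 is lowest in that skin pool, and Krt36 is highest in colon.

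The broadest range of keratin genes was detected in mTEC. With every library thinned to about 12946533 gene reads, 51, 46 and 51 keratins had at least 5 reads in the mTEC pools, against 41, 37 and 37 in cTEC, 27, 29 and 45 in skin, 22, 24 and 23 in colon and 20, 16 and 17 in lung. Each of the 53 members was detected in at least 1 mTEC pool, and 45 in all of them. Most were at low levels. Of the 20 keratins with a mean below 10 TPM in every group, 16 were highest in mTEC, and for 8 of these each mTEC pool lay above every other library. Examples are Krt9, a keratin of palm and sole epidermis, at 16.3, 4.60 and 7.14 TPM, and Krt76, a keratin of palate and gum, at 11.7, 5.48 and 9.06 TPM, each at most 1.24 TPM elsewhere. Krt13 and Krt4, the pair of oesophagus and oral lining, stood at 7.48 to 11.7 and 2.80 to 11.1 TPM. These 4 genes were picked after their values were seen. The counts in this paragraph are not set beside the same counts over all genes. They describe the keratins only, and whether keratins differ in this from other genes was not tested.

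Within mTEC the low keratins followed the pool. Pool 1 was the highest of the 3 for 38 of the 53 keratins and for 15 of the 20 low ones, while Krt5, Krt14, Krt17 and Krt18 were highest in pool 2. The share of all genes highest in pool 1 is not given, so these counts too describe the keratins only. Aire, the regulator through which mTEC transcribe many tissue-restricted genes, was at 613, 242 and 587 CPM in pools 1 to 3. Summed markers of colon epithelium were 160, 74.2 and 144 CPM in the same pools, of cornified cells 204, 136 and 151 CPM, and of mesothelium 139, 104 and 161 CPM. Other lists had another order, with lung epithelium markers at 67.7, 74.3 and 232 CPM and tuft cell markers at 318, 325 and 436 CPM. Markers of cells other than epithelium were highest in pool 1 for 7 of 7 thymocyte genes (summed 50.4, 30.1 and 33.8 CPM), 5 of 5 myeloid genes (171, 75.1 and 150 CPM) and 4 of 4 endothelial genes. The counts were 3 of 4 for melanocyte genes and only 1 of 5 for fibroblast genes. The part of all these cell types in the keratin levels was not tested.

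**Figure D3:**
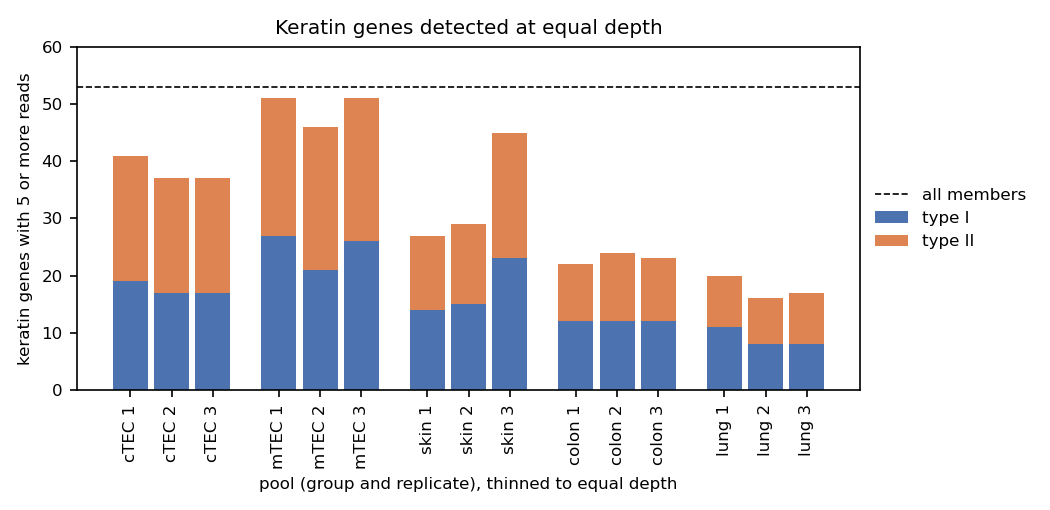
Number of keratin genes with at least 5 reads after every pool was thinned to about 12946533 gene reads, type I and type II stacked, with all 53 members as a dashed line. The mTEC pools reach 46 to 51 genes and lung pools 16 to 20, and skin pool 3 has 45 where the other skin pools have 27 and 29.

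Skin compared with the thymus, made with the same kit, showed the change from mixed to epidermal keratins. Krt10 rose from 32.0, 35.6 and 24.3 TPM in cTEC to the levels given above, 8.92 ± 0.43 log2 units (adjusted p = 1.80e-09), and it was 8.02 ± 0.41 log2 units above mTEC (adjusted p = 3.72e-09). Krt1 was 10.08 ± 0.60 log2 units above cTEC and 8.80 ± 0.57 above mTEC, and Krt77 10.21 ± 0.64 and 7.72 ± 0.58. Krt15, at 24.5, 20.4 and 9.27 TPM in cTEC, was 8.25 ± 0.94 and 8.29 ± 0.94 log2 units higher in skin. The simple keratins fell: Krt18 changed by -8.41 ± 0.36 against cTEC and -7.79 ± 0.35 against mTEC, Krt8 by -7.68 ± 0.42 and -7.51 ± 0.41, and Krt7 by -6.95 ± 0.23 and -7.03 ± 0.23 log2 units. The largest adjusted p of the differences in this paragraph was 5.08e-06, for Krt15 against mTEC.

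The basal keratins differed less. Krt14 was 3.91 ± 1.05 log2 units above cTEC (adjusted p = 0.00571) and 2.61 ± 0.99 above mTEC (adjusted p = 0.0360), and the second call was lost without any mTEC pool or without skin pool 1 or 2. Krt5 was 2.67 ± 0.73 log2 units above cTEC (adjusted p = 0.00628), and at 1.61 ± 0.70 above mTEC it did not pass (adjusted p = 0.0640), although every skin pool exceeded every mTEC pool. Krt17, at 772, 984 and 1768 TPM in skin, did not pass against cTEC (0.28 ± 0.55 log2 units, adjusted p = 0.688) or mTEC (-0.89 ± 0.55, adjusted p = 0.184), although every skin pool was below every mTEC pool.

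Against cTEC 36 of 49 keratins differed (26 higher and 10 lower in skin, beside 56.4% of all genes, 23.9% higher and 32.5% lower), and against mTEC 29 of 49 (18 and 11, beside 57% of all genes, 22.4% higher and 34.6% lower). The medians of the log2 differences were 3.38 and 1.05, beside -0.19 and -0.22 for all genes, and with genes unread in a group set to their bound of 3 reads they were 2.67 and 1.05. These comparisons share the skin pools. A keratin that passed the filter only through skin pools had to differ, so these counts describe the 49 and support no statement on the family. In a fit of skin and cTEC alone 31 keratins were tested and 21 called (67.7%, beside 46.2% of all genes), all of them among the 36.

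Skin pool 3 carried inner root sheath keratins that did not exceed 0.58 TPM in pools 1 and 2. Krt71, a type II inner root sheath keratin, was at 0, 0.05 and 376 TPM in skin pools 1 to 3, and its type I partner Krt25 at 0.58, 0.26 and 280 TPM. Krt28 was at 0, 0 and 308 TPM, Krt27 at 0, 0.13 and 70.8 TPM, and Krt73 at 0, 0 and 73.6 TPM. The summed level of the 7 inner root sheath members was 0.58, 0.44 and 1115 TPM. Their genes lie together, Krt25 to Krt28 within 59.4 kb of chromosome 11 (99315516 to 99374903) and Krt71 to Krt73 within 68.4 kb of chromosome 15 (101733949 to 101802346).

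Keratins of the hair shaft and the companion layer were high in the same pool. Krt35 was at 0.52, 0 and 111 TPM, Krt75 at 0.03, 0.15 and 80.8 TPM, Krt6b at 0, 0.29 and 75.3 TPM and Krt6a at 10.1, 34.3 and 351 TPM. Krt6a and Krt6b share 43.6% and 44.5% of their windows with each other, so their separate levels are uncertain. In all, 14 keratins (6 type I, 8 type II) were at 10 TPM or more in pool 3 and at least 10 times either other pool. This set was read from the values and is given without a test. Krt32, a hair cuticle keratin, ran against it at 26.7, 32.7 and 4.58 TPM, and Krt2, a keratin of the upper epidermis, was high only in pool 2 at 0.83, 88.7 and 2.15 TPM.

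All 6 hair follicle markers outside the keratins were also highest in pool 3. Their sum was 83.1, 140 and 521 CPM in skin pools 1 to 3, so pools 1 and 2 were not without them. It was 212 to 353 CPM in cTEC and 280 to 455 CPM in mTEC. Msx2 was at 6.49, 5.04 and 115 CPM, Hoxc13 at 0, 1.59 and 57.9 CPM, Lhx2 at 0, 5.66 and 65.6 CPM and Padi3 at 0, 0 and 17.7 CPM in skin pools 1 to 3. Markers of 2 other cell types were higher there as well, 5 of 5 fibroblast markers and 3 of 4 melanocyte markers, the latter at a summed 26.3 CPM against 5.27 and 3.27. The basal keratins and the hemidesmosome gene Col17a1 (4687, 4701 and 2194 CPM) were lowest in it. Without pool 3, 6 keratins that had been called higher in skin than in cTEC took the opposite sign (Krt71, Krt73, Krt75, Krt6b, Krt83 and Krt87), and skin against lung had 30 calls in place of 40, while the share of all genes called was 59.9% in place of 60.4%.

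**Figure D4:**
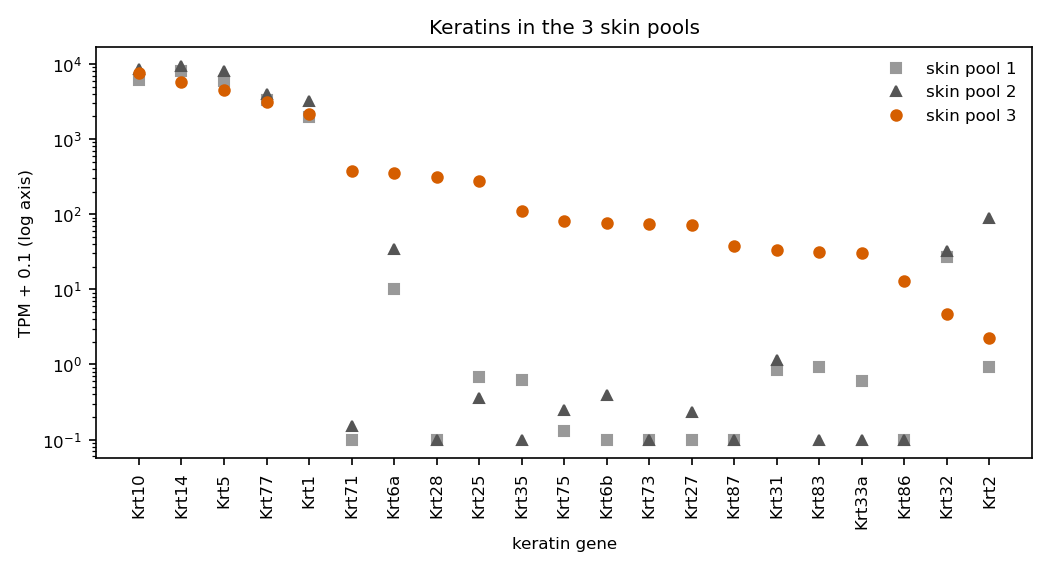
TPM + 0.1 of 21 keratins in the 3 skin pools, on a log axis, for the 14 genes raised in pool 3, 5 epidermal genes, Krt2 and Krt32. The 5 epidermal genes lie between 1986 and 9473 TPM in all 3 pools, while the 14 genes lie at least 10-fold higher in pool 3.

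Lung and colon, made with the other kit, shared their leading type I genes and differed in type II. Krt7 was 2.43 ± 0.18 log2 units higher in lung (adjusted p = 4.17e-08) and Krt8 changed by -2.63 ± 0.33 (adjusted p = 7.15e-06), with no overlap for either. Krt19 changed by -1.79 ± 0.45 (adjusted p = 0.00313) and Krt18 by -0.94 ± 0.26 log2 units (adjusted p = 0.00542) in lung against colon. Krt20 stood at 121, 80.2 and 142 TPM in colon and 1.23, 0.32 and 0.34 TPM in lung, a change of -7.75 ± 0.54 log2 units (adjusted p = 1.73e-08). Krt36, which is grouped with the hair keratins, stood at 56.1, 42.2 and 49.0 TPM in colon and at most 3.03 TPM in any other library, and was -9.57 ± 0.84 log2 units in lung against colon (adjusted p = 1.98e-07). Krt80 was 3.90 ± 0.34 log2 units higher in lung (adjusted p = 1.94e-07). Of 49 keratins 24 differed, 8 higher and 16 lower in lung, beside 58.6% of all genes (30.4% higher, 28.3% lower).

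Krt5, Krt15 and Krt17 in lung varied between pools more than any leading keratin. Krt5 was at 125, 5.41 and 55.3 TPM in lung pools 1 to 3, Krt15 at 180, 12.1 and 85.8 TPM, and Krt17 at 87.7, 8.04 and 33.4 TPM. The order of the pools was the same in these 3 genes, with pool 2 lowest. Krt14 did not follow, at 23.9, 0.73 and 0.36 TPM, and did not differ from colon by the test (2.21 ± 1.06 log2 units, adjusted p = 0.0871). Trp63, which encodes the basal cell factor p63, was at 57.6, 4.69 and 20.9 CPM in the same pools and Col17a1 at 75.4, 8.68 and 39.8 CPM. Krt5 was nevertheless 8.66 ± 1.06 log2 units above colon (adjusted p = 6.20e-06). Summed myeloid markers in lung were 1201 to 2814 CPM, mostly Lyz2, which alveolar type II cells also make, and Ptprc, which marks all leukocytes, was at most 3.47 CPM.

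In contrasts across kits, kit and tissue cannot be told apart. Skin differed from colon in 36 of 49 keratins (28 higher, 8 lower, beside 58.2% of all genes, 27.4% higher and 30.8% lower) and from lung in 40 of 49 (36 and 4, beside 60.4%, 26.7% and 33.7%), or 22 of 27 tested in a fit of skin and lung alone (81.5%, beside 58.7% of all genes). Krt77 had no read in colon against 329094 in skin and was at least 213468-fold higher in skin, and Krt71 had no read in lung and was at least 8027-fold higher, from pool 3 alone. mTEC differed from colon in 34 keratins (29 higher, 5 lower, beside 66% of all genes, 36.9% and 29.1%) and from lung in 41 (37 and 4, beside 63.6%, 34.9% and 28.6%). cTEC differed from colon in 30 (21 and 9, beside 65.1%, 34.6% and 30.5%) and from lung in 30 (25 and 5, beside 59.5%, 30.9% and 28.6%). These comparisons share groups, so their counts are set side by side only. A keratin that passed the filter only through the group where it is high had to differ, so the counts support no statement on the family. Members set to the bound of 3 reads, being unread in a group, numbered 15 of 49 for mTEC against lung and 8 for mTEC against colon. For cTEC they numbered 13 against lung and 10 against colon. In the test for any difference among the 5 groups all 49 tested keratins passed, beside 90.6% of all genes, and nothing is read from this count.

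The simple keratins fell into an order across the groups that the tests partly resolved. For Krt8 the order was colon, then cTEC and mTEC, then lung, then skin: cTEC was -1.40 ± 0.31 log2 units against colon (adjusted p = 0.00123), mTEC was 1.05 ± 0.31 above lung (adjusted p = 0.00865), and the thymic groups did not differ by the test. For Krt18 the order was cTEC, mTEC, colon, lung and skin, and neither mTEC against cTEC nor mTEC against colon (0.27 ± 0.25 log2 units, adjusted p = 0.357) passed. For Krt7 lung stood above mTEC by 1.79 ± 0.18 log2 units, given as -1.79 for mTEC against lung (adjusted p = 8.83e-07), and both thymic groups were above colon by 0.64 ± 0.18 (mTEC, adjusted p = 0.00518) and 0.56 ± 0.18 (cTEC, adjusted p = 0.0114). The last call was lost without cTEC pool 2 or colon pool 3.

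Pairs were described by the log2 ratio of type II to type I, with 1 added to each TPM, over the 15 pools. A pair moves together where this ratio varies less than either of its members. Of 20 pairs known in keratin biology, 16 had both members at 10 TPM or more in a group, and 8 of the 16 had a ratio SD below that of both members. Among all 272 combinations of a type II with a type I keratin above that level, 61 did.

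Krt1 and Krt10, the pair of the differentiating epidermis, had the smallest ratio SD of the 272, 0.55 log2 units, beside SDs of 4.23 for Krt1 and 3.79 for Krt10 alone. Krt1 was below Krt10 in every pool, with mean ratios of -1.60 in skin, -2.41 in mTEC, -2.56 in colon, -2.78 in lung and -2.99 in cTEC. In colon and lung Krt1 was at most 0.50 TPM, so there the added 1 sets the ratio. Krt8 and Krt18, the neighbouring genes of simple epithelium, came 11th with an SD of 0.88, beside 3.46 and 3.32 for the genes alone, and each was the closest partner of the other. Their ratio was -0.66 in cTEC, -0.22 in mTEC, -0.08 in skin and 0.12 in lung. In colon, where Krt19 was the leading type I gene, it was 1.78 (at most 2.03). The TPM of Krt8 depends on how reads are assigned, so the sign of the smaller ratios is uncertain.

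The basal keratin Krt5 stood in different ratios to type I keratins in different groups. Its closest partner was Krt17, with a ratio SD of 1.11: the mean ratio was 0.10 in cTEC and 0.01 in mTEC but 2.44 in skin. The ratio of Krt5 to Krt14 had an SD of 1.76 and was 0.85 in cTEC, 0.79 in mTEC, -0.34 in skin and 3.20 (1.89 to 5.37) in lung. Against Krt15 the ratio was 0.70 in skin and -0.72 in lung but 6.26 in cTEC and 7.02 in mTEC, and its SD of 3.82 exceeded that of Krt15 itself. The ranges of these ratios within skin, cTEC and mTEC did not overlap between skin and either thymic group for any of the 3 partners.

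In the simple keratins the ratio of type II to type I also differed between tissues. Krt8 to Krt19 was 0.37 in colon and -0.39 in lung but 3.67 in cTEC and 5.05 in mTEC. Krt7 to Krt19 was 0.36 in lung, -4.12 in colon and 3.14 in mTEC, and Krt7 to Krt18 was 0.87 in lung, -2.71 in colon and -2.94 in cTEC. Krt71 and Krt25, of the inner root sheath, had a ratio SD of 0.83 and a mean ratio of -0.17 in skin and 1.82 in mTEC. In skin pools 1 and 2 the added 1 sets the ratio, and in skin pool 3 Krt71 at 376 TPM was above Krt25 at 280 TPM. Both genes were at or near 0 in most other pools, so their small spread rests on skin pool 3 and on mTEC.

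**Figure D5:**
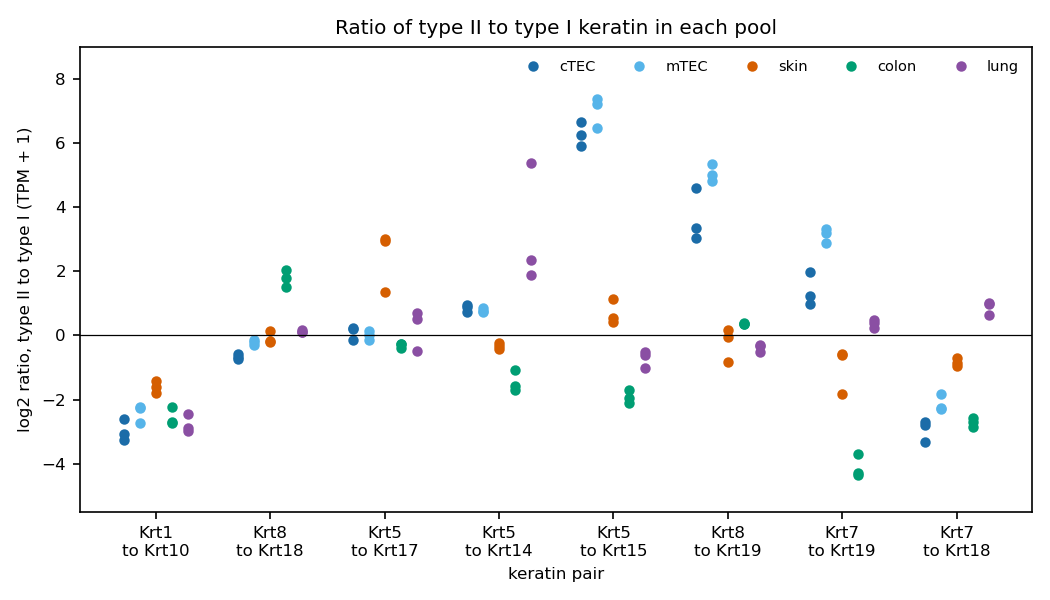
Log2 ratio of type II to type I TPM, with 1 added to each, for 8 pairs in each pool, coloured by group. Krt1 to Krt10 stays between -3.28 and -1.41 in all pools, Krt8 to Krt18 rises only in colon, and Krt5 to Krt15 splits the thymic groups from skin and lung.

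The genes that anchor keratin filaments were mostly higher in skin. Of 23 desmosome and hemidesmosome genes on a list, 22 were tested, and against mTEC 16 rose and 3 fell in skin, beside 22.4% and 34.6% of all genes, with a median log2 difference of 2.57 beside -0.22 for all genes. Col17a1, a hemidesmosome collagen, was 6.25 ± 0.66 log2 units higher in skin than in mTEC (adjusted p = 2.58e-06), and the desmosomal linker Evpl 6.20 ± 0.34 (adjusted p = 6.44e-09). The 3 that fell were Dsg2, Dsc2 and Pkp2, desmosome genes of simple epithelia. Between mTEC and cTEC 8 rose and 1 fell, beside 15.2% and 9.45% of all genes, with a median of 0.13 beside 0.07. The desmosomal cadherins Dsg1a (10.8, 5.79 and 4.42 CPM in cTEC and 103, 77.9 and 78.1 CPM in mTEC) and Dsg1b were 3.62 ± 0.32 and 3.94 ± 0.42 log2 units higher in mTEC (adjusted p = 1.01e-05 and 8.52e-05). In lung against colon 5 rose and 10 fell, beside 30.4% and 28.3% of all genes, with a median of -0.84 beside 0.0040. Dsg2 changed by -4.77 ± 0.33 and Dsc2 by -5.03 ± 0.51 log2 units (adjusted p = 1.67e-08 and 8.40e-07).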

How the data were processed

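Polyadenylated RNA of 15 libraries was sequenced, 3 pools of each of 5 groups. The submitters' processing notes name bcl2fastq 2.20, STAR 2.5.1b, RSEM 1.2.28 and the build GRCm38. Not given in the sources used here is which gene models were used. The authors deposited read counts per gene in unstranded and stranded columns, and RSEM tables with expected counts, TPM and FPKM. The sense-strand counts were tested, the deposited TPM gave levels between genes, expected counts were an alternative after rounding to whole numbers, and the deposited FPKM were not used. Lines of reads outside genes, 24.2% to 46.9% of the gene and non-gene total, were left out. Symbols matched 50376 of 50600 identifiers.

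TMM scaling was done in edgeR 4.0.16, and genes were filtered with filterByExpr by group, which left 19107 genes and 49 of the 53 keratins. Krt26, Krt28, Krt34 and Krt40 were not tested. One quasi-likelihood model was fitted to the 15 libraries with a mean for each group, so the spread is shared. P-values were adjusted by Benjamini-Hochberg over all genes tested and called under 0.05, and they measure the spread between pools. Standard errors of log2 differences were taken from the F statistic, as |log2 difference| over its root. A fold against a group without reads sets that group at 3 reads over its libraries. The steps were tested on simulated data. Alternatives were other scalings, filters, counts, DESeq2 1.42.0, thinning, a replicate block, and fits without single libraries. Reads are not independent molecules, so depth bounds cover counting error only. Shared sequence was the share of 50-base windows found in other GENCODE M21 transcripts.

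Keratins with a mean of at least 10 TPM in a group are named with values, the others by counts, except where stated. The members and lists were chosen with earlier results of these data known. Same-numbered cTEC and mTEC pools were taken as paired from the data, not the labels, since all 3 correlations of their deviations from the group means exceeded 0.1 (0.156 to 0.290), while the 6 between different numbers ran from -0.222 to -0.0410. In no other pair of groups did all 3 exceed 0.1. The fit without the block stayed the main fit, and the blocked values stand beside the calls they change.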

Additional observations from a re-analysis of the deposited data

How the results depend on the processing

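Each call of a named keratin in a comparison was checked under each alternative, and the numbers here count these checks. Under the alternatives that drop no single library 2143 checks kept direction and call, and 56 lost the call. A keratin without an adjusted p under an alternative is not counted there. Thus DESeq2 has 188 checks that kept the call and 5 that lost it, and the fit without a filter on low counts has 228 that kept it. With single libraries left out 3231 kept both, 176 lost the call and 13 changed sign, all without skin replicate 3. Over the omissions of single libraries, with skin replicate 3 giving the lowest value, log2 differences against cTEC ran from -2.07 to 8.91 for Krt71, -3.89 to 4.12 for Krt75, -1.77 to 5.77 for Krt6b, -6.32 to 6.98 for Krt73, -4.07 to 7.51 for Krt87 and -0.80 to 5.13 for Krt83. Against mTEC they ran from -1.29 to 6.66 for Krt25, -0.014 to 6.87 for Krt35, -2.43 to 6.16 for Krt27 and -0.75 to 4.61 for Krt33a, and against lung from -6.32 to 5.11 for Krt87. Without skin replicate 3 Krt73 was at 0 against colon and against lung. In a fit of only the groups compared, where fewer keratins passed the filter, calls numbered 27 of 42 in place of 14 of 49 for mTEC against cTEC, 21 of 31 in place of 36 of 49 for skin against cTEC, and 22 of 27 in place of 40 of 49 for skin against lung. The shares of all genes called were 32.8%, 46.2% and 58.7%, in place of 24.7%, 56.4% and 60.4%. Leaving out single libraries gave 6 to 30 calls for mTEC against cTEC, 30 to 40 for skin against cTEC, 24 to 38 for skin against mTEC, 20 to 27 for lung against colon, 32 to 41 for skin against colon and 30 to 44 for skin against lung. It gave 23 to 36 for cTEC against colon, 25 to 38 for cTEC against lung, 27 to 40 for mTEC against colon, 39 to 47 for mTEC against lung, and 48 to 50 in the test for any difference among the 5 groups, which called 49 keratins with all libraries beside 90.6% of all genes. The leading genes stayed in 9 to 10 of 10 cases, and 7 to 10 pairs (8 with all libraries) had a ratio spread below both members. Beyond the number of keratins tested, the cause of these changes was not tested.

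With the replicate block calls numbered 13 for mTEC against cTEC, 28 for skin against cTEC, 22 for skin against mTEC, 24 for lung against colon, 32 for skin against colon, 39 for skin against lung, 28 and 29 for cTEC against colon and lung, 34 and 44 for mTEC against colon and lung, and 48 among the 5 groups. With the replicate block of the thymic pools alone, chosen after seeing the data, 12 passed for mTEC against cTEC. Between the other pairs of groups the replicate number is only a number, with same-number correlations from -0.0636 to 0.114.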

Other observations

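The thymic epithelia also differed in intermediate filament genes outside the keratins, read from a list of 15. Synm, which encodes synemin, a filament protein best known from muscle, stood at 323, 259 and 418 CPM in cTEC, 93.3, 105 and 105 in mTEC, 100 to 114 in lung and at most 5.84 in skin and colon. It changed by -1.72 ± 0.23 (SE) log2 units in mTEC against cTEC (adjusted p = 0.000213). The neurofilament gene Nefm stood at 40.0, 38.5 and 93.6 CPM in cTEC and 7.54, 5.14 and 5.51 in mTEC, a change of -3.24 ± 0.56 (adjusted p = 0.00118). Vim, the vimentin gene of mesenchymal cells, was 1.76 ± 0.40 log2 units higher in mTEC (adjusted p = 0.00628) at 273, 228 and 254 CPM. Summed fibroblast markers were 18.4 to 42.6 CPM in mTEC and 16.6 to 34.4 in cTEC. Summed myeloid markers were 75.1 to 171 CPM in mTEC and 32.0 to 55.8 in cTEC, and summed thymocyte markers 30.1 to 50.4 and 79.4 to 108. The part of such cells in the Vim level was not tested. Des, the desmin gene of muscle, was 2.77 ± 0.37 log2 units higher in mTEC (adjusted p = 0.000203), at 50.9, 74.9 and 49.8 CPM against 9.71, 11.1 and 4.93 in cTEC. Of the 14 genes of the list that passed the filter, 4 were higher and 2 lower in mTEC, beside 15.2% and 9.45% of all genes.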
